A study of Mus musculus with 10 samples.

Results

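Skeletal muscle turns an action potential into a calcium signal at the triad, where a transverse tubule of the surface membrane meets the calcium store, the sarcoplasmic reticulum. Transcripts of 10 genes of this machinery are described here: Ryr1, Trdn, Casq2, Cacna1s, Cacnb1, Cacng1, Stac3, Jph1, Jph2 and Atp2a1. They were taken as a list of excitation-contraction coupling genes present in the expression table, and all 10 were found among its 11228 genes. The study silenced the lncRNA Charme in cultured mouse myotubes, multinucleate cells made by the fusion of myoblasts, on day 2 of differentiation. Polyadenylated RNA was sequenced from 2 libraries given the gapmer set GAP-2, 2 libraries given the set GAP-2/3 and 2 libraries given the scrambled gapmer GAP-scr; a gapmer is an antisense oligonucleotide that recruits RNase H to its target RNA. The labels name no strain, no transgene and no other treatment for these cells, the cell source of the myotubes and the gapmer sequences are not given in the sources used here, and Charme itself was not analysed here, so the extent of its loss is not known from these values. The other assay, ChIRP-seq, sequenced the DNA that co-purified with Charme on DNA probes, with 1 library each for an even probe set, an odd probe set, LacZ control probes and input.

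In a muscle fibre the dihydropyridine receptor of the transverse tubule senses the voltage change. It is built around Cacna1s, the pore-forming and voltage-sensing subunit, with Cacnb1 as its intracellular beta subunit, Cacng1 as its gamma subunit and Stac3 as an adaptor needed for coupling. It is coupled mechanically to Ryr1, the channel through which the store releases calcium. Triadin (Trdn) links that channel to calsequestrin, the calcium-binding protein of the store, whose Casq2 form is the cardiac and slow-muscle one. The junctophilins Jph1 and Jph2 hold the membranes together, and Atp2a1 (SERCA1) pumps calcium back into the store.

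Values are the FPKM deposited by the authors, that is, fragments divided by transcript length and by library size, and log2 changes are on the log2(FPKM + 1) scale. The replicates, A and B, are termed biological by the series text, but nothing states that they were separate cultures, so the spread behind the p-values is that between libraries and could be technical. Median FPKM over all genes was 11.9 to 13.3 in the 6 libraries, and depth is unknown. The ribosomal RNA entry Rn45s stood at 4090 FPKM in GAP-2 replicate A and 3387 FPKM in GAP-scr replicate A, against 93.2 to 176 FPKM in the other 4 libraries. The median log2 change over all tested genes was 0.10 when both gapmer arms were averaged and set against GAP-scr, 0.07 when GAP-2 was taken alone and 0.13 when GAP-2/3 was, so a member's change is read against a slightly positive centre.

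The members covered a wide range of levels. In GAP-2 libraries the order of the mean FPKM was Cacng1, Atp2a1, Casq2, Jph2, Cacnb1, Stac3, Ryr1, Jph1, Cacna1s and Trdn, and of these neighbours only Jph1 and Cacna1s had overlapping libraries. In GAP-2/3 libraries the order was the same except that Cacna1s stood above Jph1, and the overlapping neighbours were Atp2a1 with Casq2 and Ryr1 with Cacna1s. In GAP-scr libraries Ryr1 stood above Stac3 and Cacna1s above Jph1, and the overlapping neighbours were Cacng1 with Atp2a1, Jph2 with Cacnb1, and Ryr1 with Stac3. The most abundant transcript, Cacng1, averaged 234 ± 19.4 FPKM in GAP-2, 257 ± 4.99 FPKM in GAP-2/3 and 311 ± 37.8 FPKM in GAP-scr libraries (SD, n = 2 each), while the least abundant, Trdn, averaged 2.93 ± 0.394, 3.70 ± 0.686 and 3.16 ± 0.402 FPKM in the same groups.

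**Figure D1:**
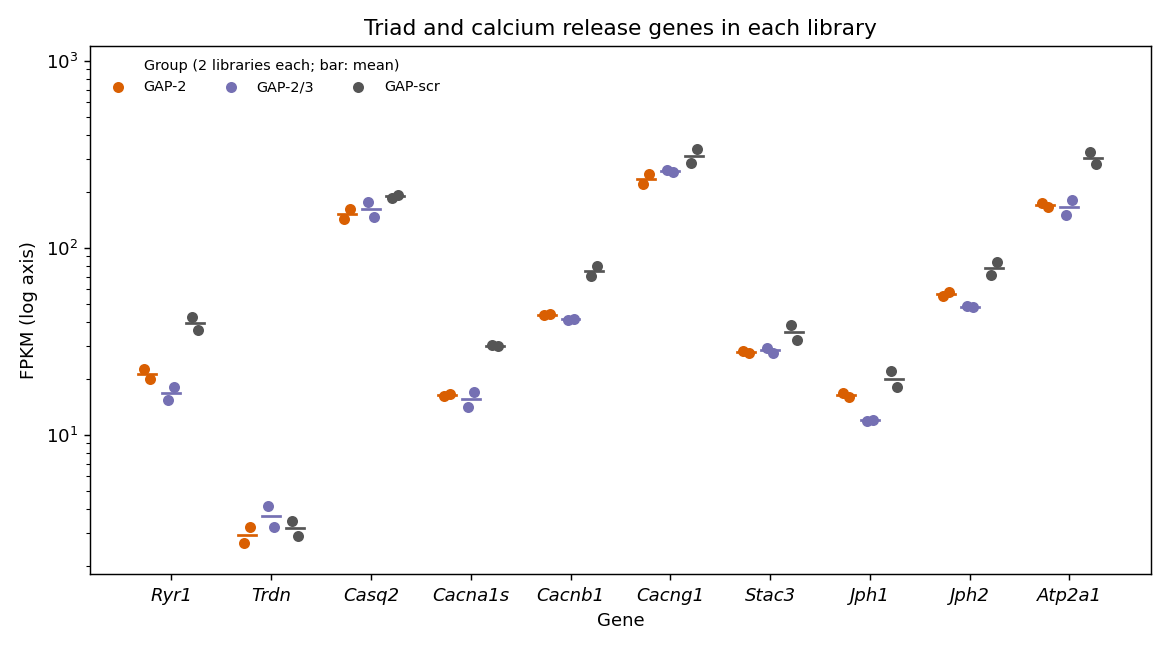
FPKM of the 10 triad and calcium release genes in each library (log axis), with points for the 2 libraries of GAP-2, GAP-2/3 and GAP-scr and a bar for each group mean. The gapmer libraries lie below both GAP-scr libraries for 9 of the 10 genes, as for 14% of all tested genes, and Trdn, the lowest at 2.65 to 4.18 FPKM, overlaps.

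The promoters of 6 members were matched in RefSeq (GRCm38.p6): those of Ryr1, Casq2, Cacna1s, Cacnb1, Jph2 and Atp2a1. They are shown to set the promoters beside the changes: 5 of these genes passed as lower for the mean of both gapmer arms and Casq2 did not. Each is the 250 bases upstream of the annotated start, 5′ to 3′ on the gene's strand. They lie at chr7:29125152-29125401 (Ryr1, minus strand), chr1:136052561-136052810 (Cacna1s, plus strand), chr11:98022628-98022877 (Cacnb1, minus strand), chr7:126463074-126463323 (Atp2a1, minus strand), chr2:163397994-163398243 (Jph2, minus strand) and chr3:102086165-102086414 (Casq2, plus strand). Capitals mark the letters CAGCTG, an E-box of the kind bound by myogenic factors such as MyoD, and in Casq2 a match to the MEF2 motif.
Ryr1: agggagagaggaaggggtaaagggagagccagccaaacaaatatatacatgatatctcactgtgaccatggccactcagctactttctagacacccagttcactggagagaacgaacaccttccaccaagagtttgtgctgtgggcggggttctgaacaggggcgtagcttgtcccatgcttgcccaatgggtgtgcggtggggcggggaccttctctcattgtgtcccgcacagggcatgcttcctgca
Cacna1s: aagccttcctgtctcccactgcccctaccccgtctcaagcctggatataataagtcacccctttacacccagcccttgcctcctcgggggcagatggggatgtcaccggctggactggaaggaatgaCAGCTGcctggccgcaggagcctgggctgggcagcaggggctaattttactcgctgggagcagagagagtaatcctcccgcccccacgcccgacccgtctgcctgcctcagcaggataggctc
Cacnb1: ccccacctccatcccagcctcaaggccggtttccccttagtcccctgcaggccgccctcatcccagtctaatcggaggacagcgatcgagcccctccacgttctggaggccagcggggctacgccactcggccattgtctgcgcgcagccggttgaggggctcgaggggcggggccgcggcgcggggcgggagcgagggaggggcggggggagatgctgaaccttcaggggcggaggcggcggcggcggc
Atp2a1: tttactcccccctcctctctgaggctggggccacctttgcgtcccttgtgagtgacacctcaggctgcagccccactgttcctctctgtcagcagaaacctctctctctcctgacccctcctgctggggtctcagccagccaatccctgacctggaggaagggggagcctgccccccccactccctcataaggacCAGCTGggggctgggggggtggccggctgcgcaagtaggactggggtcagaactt
Jph2: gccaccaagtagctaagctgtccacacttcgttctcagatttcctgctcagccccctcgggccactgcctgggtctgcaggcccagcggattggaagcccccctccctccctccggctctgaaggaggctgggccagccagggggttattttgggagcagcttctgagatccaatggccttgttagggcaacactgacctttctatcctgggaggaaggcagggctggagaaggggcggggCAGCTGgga
Casq2: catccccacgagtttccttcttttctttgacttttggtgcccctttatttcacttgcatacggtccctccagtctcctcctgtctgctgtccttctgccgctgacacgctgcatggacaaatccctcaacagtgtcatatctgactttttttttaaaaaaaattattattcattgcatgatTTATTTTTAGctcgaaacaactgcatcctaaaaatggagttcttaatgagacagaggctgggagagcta
CAGCTG was found in 3 of the 6 promoters, against 13.0% of 32851 promoters of the same length. It began 123 bases before the start of Cacna1s, 55 before that of Atp2a1 and 9 before that of Jph2. The looser E-box CANNTG, which includes CAGCTG, was in 4 of the 6 against 66.2% of all promoters. The MEF2 motif was found in the Casq2 promoter alone among the 6, 69 bases before the start, against 2.92% of all promoters. The CArG box bound by serum response factor was found in 0 of the 6 against 1.47%. Both strands were read, a match is a string of letters and not a measured site, and the 6 are too few for a comparison.

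Ryr1 transcripts were lower in both gapmer arms than in the control, at 0.479 of the GAP-scr level for the mean of both arms. The channel transcript had 22.4 and 19.9 FPKM in GAP-2 libraries, 15.4 and 18.1 FPKM in GAP-2/3 libraries, and 42.7 and 36.5 FPKM in GAP-scr libraries. All 4 gapmer libraries were below both control libraries. The log2 change was -1.03 ± 0.11 (SE) for the mean of both arms (adjusted p = 8.06e-05, limma), -0.87 ± 0.13 in GAP-2 (adjusted p = 0.00143) and -1.19 ± 0.13 in GAP-2/3 (adjusted p = 6.35e-05), the lowest log2 change among the 10 members in each of these comparisons. In GAP-2 that rank was narrow, with Cacna1s and Atp2a1 at -0.83 ± 0.12. Without GAP-2 replicate B the GAP-2 value of Ryr1 was -0.79 and that of Cacna1s -0.86. Without GAP-scr replicate A it was -0.76 for Ryr1 and -0.86 for Cacnb1. In a bulk sample, fewer cells of a type and less RNA per cell cannot be told apart, here or for the other members. GAP-2/3 libraries lay below GAP-2 libraries for Ryr1, but the change of -0.32 ± 0.13 missed the threshold of 0.05 (adjusted p = 0.134).

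The luminal partners of the channel, Casq2 and Trdn, did not pass the test on the values as deposited. Casq2 had 142 and 161 FPKM in GAP-2 libraries, 177 and 147 FPKM in GAP-2/3 libraries, and 185 and 192 FPKM in GAP-scr libraries. Every gapmer library was below both controls, and yet the log2 change for the mean of both arms, -0.27 ± 0.10, missed the threshold (adjusted p = 0.0646, limma). It passed in 3 of 15 alternative settings, among them quantile normalization (-0.36, adjusted p = 0.0176) and scaling to one median, so that the call depends on the scaling. Trdn had 2.65 and 3.21 FPKM in GAP-2, 4.18 and 3.21 FPKM in GAP-2/3, and 3.45 and 2.88 FPKM in GAP-scr libraries. Its groups overlapped, with a log2 change of 0.04 ± 0.12 for the mean of both arms (adjusted p = 0.81), a value that was -0.10 with quantile normalization and -0.03 after scaling to one median. At about 3 FPKM a change in Trdn is also compressed by the added 1 of the log scale.

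Within a library, the transcripts of the store and of its channel changed unequally. The ratio of Casq2 to Ryr1 was 6.34 and 8.09 in GAP-2 libraries, 11.5 and 8.10 in GAP-2/3 libraries, and 4.32 and 5.25 in GAP-scr libraries. The 4 gapmer ratios were all above the 2 control ratios. The smallest p that a two-sided exact permutation test can give for 4 libraries against 2 is 0.133. The ratios are given as a description, and no test of them was run. Casq2 to its skeletal paralogue Casq1 gave 6.11, 5.43, 7.69 and 6.66 in gapmer libraries against 7.80 and 6.35 in GAP-scr libraries, which overlapped. Ryr1 to Ryr3, the minor muscle isoform of the channel, gave 5.22, 4.60, 4.07 and 4.24 in gapmer libraries against 5.13 and 6.72 in GAP-scr libraries, which also overlapped. The ratios were chosen after the values had been seen.

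Of the voltage sensor, Cacna1s and Cacnb1 fell most. Cacna1s had 16.1 and 16.6 FPKM in GAP-2 libraries, 14.1 and 16.9 FPKM in GAP-2/3 libraries, and 30.1 and 29.8 FPKM in GAP-scr libraries, and its 4 gapmer libraries were well below both controls. The log2 change was -0.87 ± 0.10 for the mean of both arms (adjusted p = 0.000158, limma), or 0.533 of the control level. Cacnb1 had 43.5 and 44.1 FPKM in GAP-2, 41.2 and 41.8 FPKM in GAP-2/3, and 70.3 and 80.1 FPKM in GAP-scr libraries, and its groups did not overlap either. Its log2 change was -0.80 ± 0.09 (adjusted p = 0.000158), or 0.567 of the control level. Both genes also passed in each arm alone, Cacna1s at -0.83 ± 0.12 with GAP-2 and -0.91 ± 0.12 with GAP-2/3, and Cacnb1 at -0.76 ± 0.11 in GAP-2 and -0.84 ± 0.11 in GAP-2/3 (adjusted p between 0.000236 and 0.00114).

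The other components of the voltage sensor complex were lower by less. Cacng1 had 220.0 and 247 FPKM in GAP-2 libraries, 261 and 253 FPKM in GAP-2/3 libraries, and 284 and 338 FPKM in GAP-scr libraries. Its log2 change was -0.34 ± 0.10 for the mean of both arms (adjusted p = 0.0248, limma) and -0.41 ± 0.12 in GAP-2 (adjusted p = 0.0391), while the value in GAP-2/3, -0.27 ± 0.12, missed the threshold (adjusted p = 0.0886). Stac3 had 28.0 and 27.5 FPKM in GAP-2, 29.1 and 27.5 FPKM in GAP-2/3, and 38.6 and 32.1 FPKM in GAP-scr libraries. It passed for the mean of both arms, at -0.32 ± 0.10 (adjusted p = 0.032), but in neither arm alone, at -0.33 ± 0.12 in GAP-2 (adjusted p = 0.0794) and -0.31 ± 0.12 in GAP-2/3 (adjusted p = 0.058). The gapmer libraries of both genes lay below both controls. For the mean of both arms the Cacng1 call was lost without GAP-2 replicate A, either GAP-2/3 library or GAP-scr replicate B (adjusted p up to 0.132), the Cacng1 call in GAP-2 without any 1 library other than GAP-scr replicate A (adjusted p up to 0.277), and the Stac3 call for the mean of both arms without any 1 library other than GAP-scr replicate B (adjusted p up to 0.187).

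Ratios between the voltage sensor transcripts did not overlap between gapmer and control libraries for some pairs. Cacng1 to Cacna1s was 13.7 and 14.9 in GAP-2 libraries, 18.4 and 14.97 in GAP-2/3 libraries, and 9.45 and 11.3 in GAP-scr libraries. Stac3 to Cacna1s was 1.74 and 1.66 in GAP-2 libraries, 2.06 and 1.62 in GAP-2/3 libraries, and 1.28 and 1.08 in GAP-scr libraries. Every gapmer ratio lay above both control ratios for these pairs. Cacnb1 to Cacna1s, by contrast, was 2.71, 2.65, 2.91 and 2.47 in gapmer libraries and 2.34 and 2.69 in GAP-scr libraries, and overlapped. Cacnb1 to Cacnb3, a beta subunit of other tissues, was 0.999 and 1.09 in GAP-2 libraries, 1.0 and 0.852 in GAP-2/3 libraries, and 1.73 and 1.77 in GAP-scr libraries. The gapmer libraries thus held about as much Cacnb3 as Cacnb1 transcript per length, and the control libraries more Cacnb1.

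**Figure D2:**
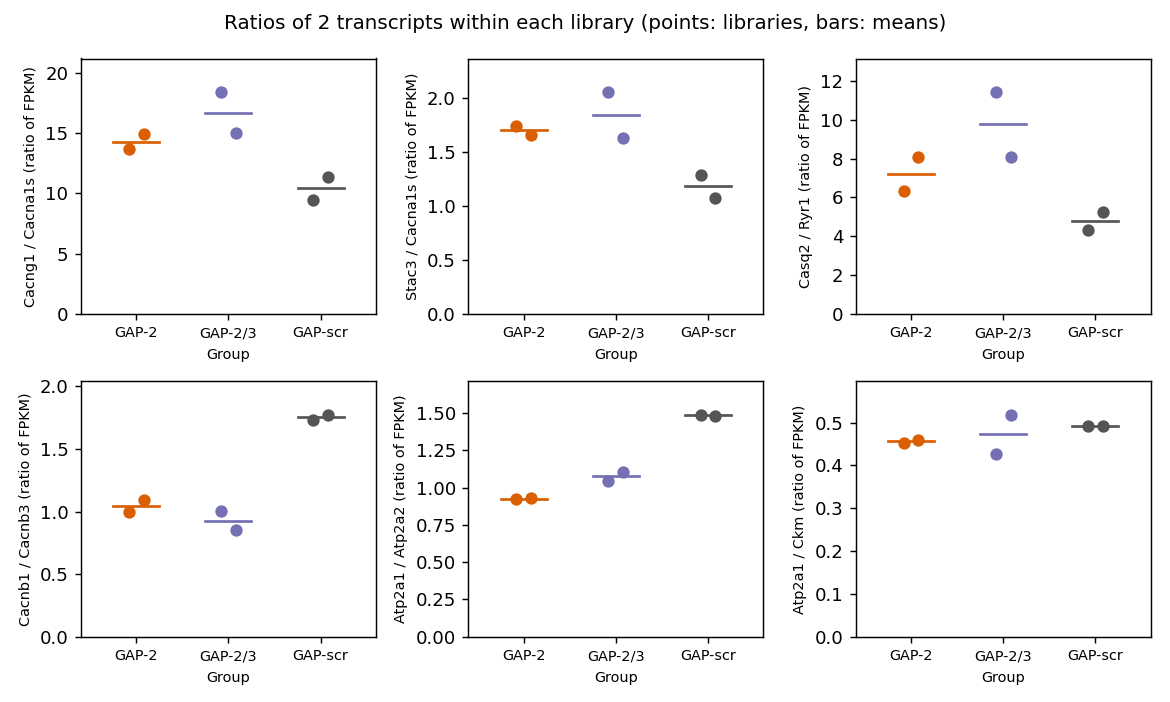
Ratio of the FPKM of 2 genes in each library, for 6 pairs, with points for libraries and bars for group means. Cacng1/Cacna1s, Stac3/Cacna1s and Casq2/Ryr1 are higher in all gapmer libraries than in both GAP-scr libraries, Cacnb1/Cacnb3 and Atp2a1/Atp2a2 are lower, and Atp2a1/Ckm overlaps.

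The junctophilins were both lower than in the control. Jph2, which is shared with heart muscle, had 55.2 and 58.0 FPKM in GAP-2 libraries, 48.7 and 48.2 FPKM in GAP-2/3 libraries, and 71.3 and 84.1 FPKM in GAP-scr libraries. With no overlap between gapmer and control libraries, its log2 change was -0.55 ± 0.10 for the mean of both arms (adjusted p = 0.00195, limma), -0.45 ± 0.11 in GAP-2 (adjusted p = 0.0234) and -0.66 ± 0.11 in GAP-2/3 (adjusted p = 0.00124). The GAP-2 call was lost when any 1 library other than GAP-scr replicate A was left out (adjusted p up to 0.167). Jph1, the skeletal form, had 16.8 and 16.0 FPKM in GAP-2, 11.9 and 12.0 FPKM in GAP-2/3, and 22.0 and 18.0 FPKM in GAP-scr libraries. The GAP-2/3 libraries were the lowest and the GAP-2 libraries lay between them and the control.

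Jph1 passed for the mean of both arms, at -0.48 ± 0.11 (adjusted p = 0.00644, limma), a call lost without both libraries high in Rn45s (adjusted p = 0.0863). It fell by 0.69 ± 0.12 on the log2 scale in GAP-2/3 (adjusted p = 0.00165, limma), whereas the GAP-2 value of -0.26 ± 0.12 missed the threshold (adjusted p = 0.163). The change of GAP-2/3 against GAP-2 was -0.43 ± 0.12 (adjusted p = 0.0486). This call between the arms was lost when any 1 of the 4 gapmer libraries was left out, with adjusted p up to 0.357, and it was the only one among the 10 members. The ratio of Jph2 to Jph1 was 3.29, 3.62, 4.09 and 4.02 in gapmer libraries against 3.24 and 4.68 in GAP-scr libraries, and overlapped.

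The calcium pump transcript fell in both arms. Atp2a1 had 175 and 165 FPKM in GAP-2 libraries, 149.8 and 179.7 FPKM in GAP-2/3 libraries, and 324 and 280.3 FPKM in GAP-scr libraries. The groups were far apart, and the log2 change was -0.85 ± 0.11 for the mean of both arms (adjusted p = 0.000233, limma), -0.83 ± 0.12 in GAP-2 (adjusted p = 0.00154) and -0.87 ± 0.12 in GAP-2/3 (adjusted p = 0.000428). The slow-muscle and housekeeping pump Atp2a2 was lower by less, with 188.6 and 178 FPKM in GAP-2, 143 and 163 FPKM in GAP-2/3, and 218 and 189 FPKM in GAP-scr libraries. The ratio of Atp2a1 to Atp2a2 was 0.925 and 0.928 in GAP-2 libraries, 1.05 and 1.11 in GAP-2/3 libraries, and 1.49 and 1.48 in GAP-scr libraries. Atp2a1 transcripts thus exceeded Atp2a2 transcripts per length in the control and in GAP-2/3 libraries, and stood below them in GAP-2 libraries.

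**Figure D3:**
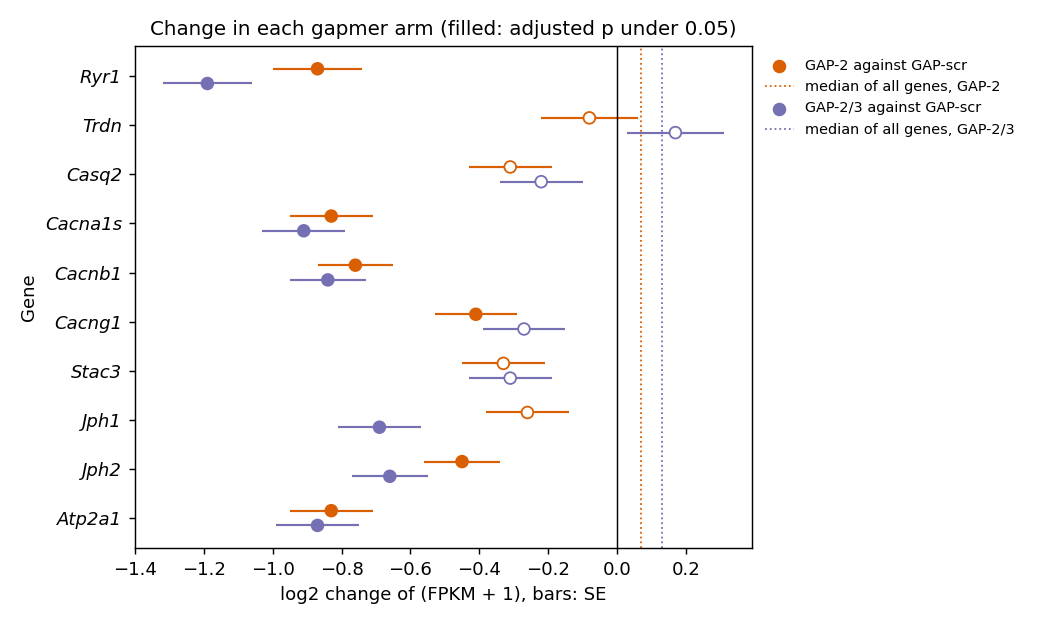
log2 change of (FPKM + 1) against GAP-scr for the 10 genes in GAP-2 and GAP-2/3, with bars of 1 SE and filled points for an adjusted p under 0.05 (limma). Ryr1 has the lowest value in both arms (-0.87 in GAP-2, near Cacna1s and Atp2a1 at -0.83, and -1.19 in GAP-2/3), and Trdn lies around 0.

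Over the 10 members, 8 passed as lower and 0 as higher in the mean of both arms, where 9.57% of all tested genes were lower, 24.5% higher and 34.1% called in either direction. In GAP-2 alone 6 members were lower and 0 higher, against 4.18% of all genes lower, 10.4% higher and 14.6% in either direction. In GAP-2/3 alone 6 members were lower and 0 higher, against 11.3% of all genes lower, 28% higher and 39.3% in either direction. The median log2 change of the 10 was -0.52 for the mean of both arms, -0.43 in GAP-2 and -0.68 in GAP-2/3. The gapmer libraries lay below both controls, with no overlap, for 9 of 10 members, which held for 14% of all tested genes. Both arms share the GAP-scr libraries, so their values are not independent of each other. The members were chosen with earlier results of these data known, so their counts beside the shares of all genes are a description. Between the arms 1 member was lower in GAP-2/3 than in GAP-2 and 0 were higher, against 3.65% of all genes lower, 6.5% higher and 10.1% in either direction.

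The split between higher and lower calls over all genes depended on the scaling. It was 1052 lower and 2698 higher for the mean of both arms as deposited, and 1553 lower and 1633 higher with every library scaled to one median. In GAP-2 it was 460 lower and 1144 higher as deposited, and 651 and 708 when scaled. In GAP-2/3 it was 1242 lower and 3081 higher as deposited, and 1790 and 1954 when scaled. For the members scaling to one median left 9 lower and 0 higher in the mean of both arms, 7 and 0 in GAP-2, and 8 and 0 in GAP-2/3. Lower calls thus rose over all genes as well.

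Most myotube markers were, like these genes, lower than in the control for the mean of both arms. All 8 markers listed (Myog, Ckm, Des, Myh3, Acta1, Tnnt3, Mylpf and Tmem8c, the fusion gene now named Mymk) were in the table, and 7 were lower and 0 higher for the mean of both arms, 7 and 0 in GAP-2, and 3 and 0 in GAP-2/3, where 9.57%, 4.18% and 11.3% of all tested genes were lower. In GAP-2/3 the share of these markers called in either direction, 37.5%, was near the 39.3% of all genes. Their summed level was 10629 to 11189 FPKM in GAP-2 libraries, 12986 to 13045 FPKM in GAP-2/3 libraries, and 16675 to 18322 FPKM in GAP-scr libraries. The myoblast and cycling-cell list had 4 of 6 genes in the table, with sums of 34.3 to 37.6 FPKM in GAP-2, 43.6 to 49.9 FPKM in GAP-2/3, and 24.7 to 26.9 FPKM in GAP-scr libraries. Of these Myf5 was higher (log2 change 0.98 ± 0.11, adjusted p = 0.000153, limma), and the other 3, all of proliferation, did not pass for the mean of both arms (log2 changes of -0.03 for Mki67, 0.01 for Ccna2 and 0.24 for Top2a). Between the arms Mki67 and Top2a were higher in GAP-2/3 than in GAP-2, by 0.47 ± 0.12 (adjusted p = 0.0324) and 0.50 ± 0.14 (adjusted p = 0.0376), and Top2a was higher in GAP-2/3 than in GAP-scr by 0.49 ± 0.14 (adjusted p = 0.0156). With quantile normalization or scaling to one median, 0 of these 4 genes passed between the arms. The calls of Mki67 and Top2a between the arms thus depend on the scaling. In GAP-2/3 against GAP-scr 1 of the 4 passed as higher with either scaling, against 2 on the values as deposited. The part of the myotube level in the members' changes was not tested.

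Of the 10 members 3 were set against Ckm, the muscle creatine kinase, as a description, chosen after the values had been seen. Ckm was itself lower for the mean of both arms, with a log2 change of -0.77 (adjusted p = 0.000256, limma). Among the myotube markers Acta1 and Tmem8c fell by more, and the others by less, such as Myog at -0.32 (adjusted p = 0.034). A ratio to Ckm therefore depends on the marker chosen. Ryr1 to Ckm was 0.0582 and 0.0556 in GAP-2 libraries, 0.0439 and 0.0523 in GAP-2/3 libraries, and 0.0648 and 0.0640 in GAP-scr libraries, so that Ryr1 was lower relative to Ckm in every gapmer library. Atp2a1 to Ckm was 0.453, 0.460, 0.426 and 0.519 in gapmer libraries against 0.492 and 0.491 in GAP-scr libraries, and overlapped. Casq2 to Ckm was 0.369, 0.450, 0.502 and 0.423 in gapmer libraries against 0.280 and 0.336 in GAP-scr libraries, higher in every gapmer library. Ryr1 to Myog was 0.0381 and 0.0298 in GAP-2 libraries, 0.01902 and 0.0205 in GAP-2/3 libraries, and 0.0435 and 0.0432 in GAP-scr libraries. Ryr1 was thus lower relative to Myog as well in every gapmer library. Atp2a1 and Casq2 were not set against Myog, so their ratios are read for Ckm alone.

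Markers of other cells were also read. Of the fibroblast list 5 of 7 genes were in the table, with summed levels of 1774 to 2098 FPKM in GAP-2, 1304 to 1533 FPKM in GAP-2/3, and 1963 to 1993 FPKM in GAP-scr libraries. For the mean of both arms Dcn and Pdgfra were higher, Col1a1 was lower with overlapping libraries, and Col1a2 and Col3a1 did not pass. In GAP-2 Dcn alone passed, as higher, and Col1a1 stood at -0.17. In GAP-2/3 Dcn and Pdgfra were higher, and Col1a1 (-0.92) and Col1a2 (-0.46) were lower. Of all tested genes 14.6% were called in either direction in GAP-2 and 39.3% in GAP-2/3. All 3 smooth muscle genes found of 4, Acta2, Tagln and Cnn1, were lower for the mean of both arms, where 9.57% of all tested genes were. In GAP-2 Acta2 and Tagln passed as lower (4.18% of all genes), and in GAP-2/3 Acta2 alone (11.3% of all genes). Cnn1 was at most 2.87 FPKM in any library. Sums of the 3 were 1362 to 1409 FPKM in GAP-2, 1564 to 1592 FPKM in GAP-2/3, and 2089 to 2341 FPKM in GAP-scr libraries. The macrophage list had 1 of 5 genes in the table, Cd68, at 2.43 and 3.54 FPKM in GAP-2, 0.962 and 0.834 FPKM in GAP-2/3, and 0.374 and 0.917 FPKM in GAP-scr libraries, which was higher for the mean of both arms (log2 change 0.75 ± 0.15, adjusted p = 0.00399) and in GAP-2 (1.28 ± 0.18, adjusted p = 0.000981). The cardiomyocyte list had 1 of 4, Tnni3, which was higher in GAP-2/3 (0.55 ± 0.15, adjusted p = 0.0137) and at most 2.67 FPKM in any library. The Schwann cell and glia list had 1 of 4, S100b, which was higher in both arms, at 4.04 to 4.50 FPKM in GAP-2, 28.5 to 30.8 FPKM in GAP-2/3, and 1.18 to 2.33 FPKM in GAP-scr libraries, while the adipocyte and endothelial lists had 0 of 4 each. The part of these cells in the results was not tested.

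The wider machinery of coupling and calcium handling did not move as one. Of 71 companion genes listed in 6 roles, 58 were in the table and 57 were tested (Slc8a1 was below the filter). In the mean of both arms 17 passed as lower, 9 higher and 31 not called (45.6% called, against 34.1% of all genes, of which 9.57% were lower and 24.5% higher), with a median log2 change of -0.14 against 0.10 over all genes. In GAP-2 alone 6 were lower and 7 higher (22.8% called, against 14.6% of all genes, 4.18% lower and 10.4% higher). In GAP-2/3 alone 21 were lower and 11 higher (56.1% called, against 39.3% of all genes, 11.3% lower and 28% higher). With the libraries scaled to one median these counts were 21 lower and 6 higher for the mean of both arms, 8 and 6 in GAP-2, and 23 and 7 in GAP-2/3, and with quantile normalization 20 and 6, 10 and 6, and 22 and 7 in the same order of comparisons. Without GAP-2/3 replicate A 14 companion genes passed for the mean of both arms and 10 in GAP-2/3, and without GAP-2/3 replicate B 17 and 20. Without any 1 gapmer library 7 or 8 passed in GAP-2.

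**Figure D4:**
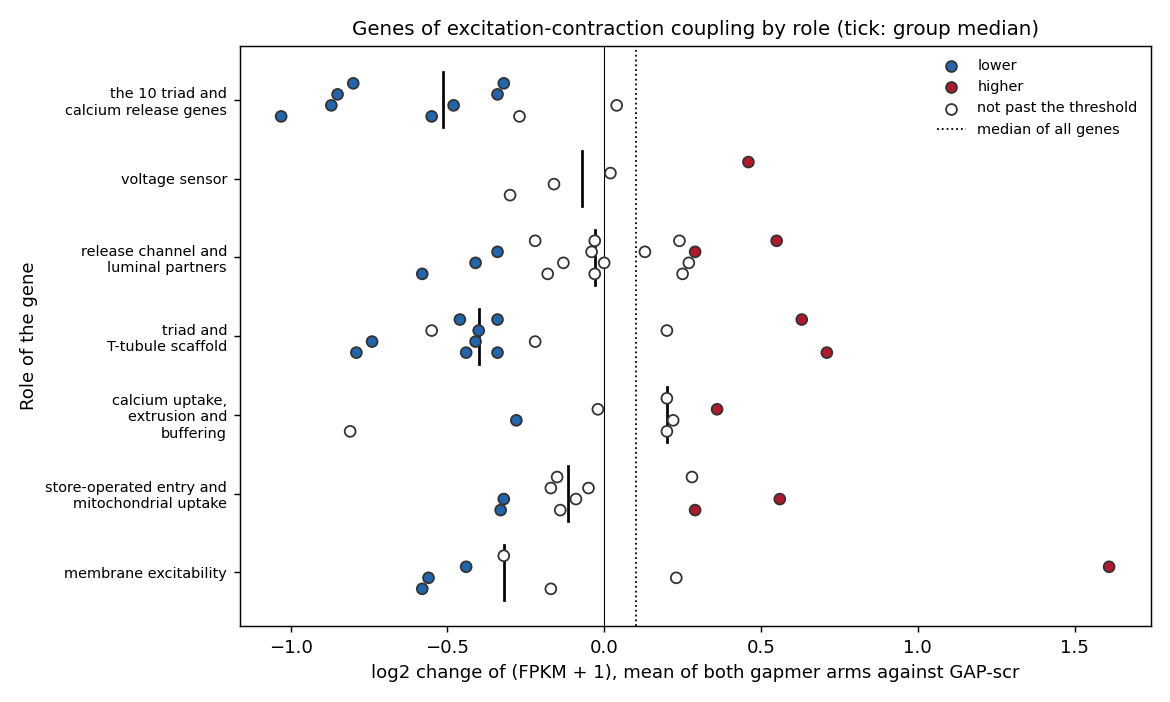
log2 change of (FPKM + 1) for the mean of both gapmer arms against GAP-scr, 1 point per gene, for the 10 members and for the 57 companion genes by role, with a tick at each median. The members have the lowest median (-0.52), followed by the scaffold genes of the triad and T-tubule (-0.40), while Kcnj2 stands apart at 1.61.

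Scaffold genes of the triad and transverse tubule came nearest to the members in median log2 change for the mean of both arms and in GAP-2/3. In GAP-2 the genes of membrane excitability, at -0.49, were nearer to the members' -0.43 than the scaffold genes, at -0.27. Of 13 scaffold genes tested, 8 were lower and 2 higher for the mean of both arms (median log2 change -0.40), 2 and 2 in GAP-2, and 9 and 2 in GAP-2/3. Over all tested genes 9.57% were lower and 24.5% higher for the mean of both arms, 4.18% and 10.4% in GAP-2, and 11.3% and 28% in GAP-2/3. Dysf, the membrane repair protein dysferlin that also sits on transverse tubules, had 15.3 and 13.97 FPKM in GAP-2 libraries, 10.97 and 12.0 FPKM in GAP-2/3 libraries, and 22.6 and 22.1 FPKM in GAP-scr libraries. Its groups did not overlap and its log2 change was -0.74 ± 0.10 (adjusted p = 0.000349, limma). The higher pair went the other way. Ahnak, a giant scaffold protein that binds calcium channel beta subunits in heart, had 99.5 and 105 FPKM in GAP-2, 106 and 119 FPKM in GAP-2/3, and 69.8 and 60.7 FPKM in GAP-scr libraries (log2 change 0.71 ± 0.10, adjusted p = 0.00049), and the phosphoinositide phosphatase Mtm1, whose loss causes myotubular myopathy, changed by 0.63 ± 0.11 (adjusted p = 0.00201). Jsrp1, Dnm2, Tmem38a, Tmem38b, Bin1 and Ank1, named after their values were seen, were among the lower scaffold genes, with log2 changes between -0.46 and -0.34.

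Partners of the release channel were called no more often than all genes for the mean of both arms, and slightly more often in each arm alone. Of 16 tested release partners 3 were lower and 2 higher for the mean of both arms, with a median log2 change of -0.03. That was 31.3% called, against 34.1% of all genes, of which 9.57% were lower and 24.5% higher. In GAP-2 1 was lower and 2 higher (18.8% called, against 14.6% of all genes, 4.18% lower and 10.4% higher). In GAP-2/3 4 were lower and 3 higher (43.8% called, against 39.3% of all genes, 11.3% lower and 28% higher). Ryr3 had 4.29 and 4.33 FPKM in GAP-2 libraries, 3.79 and 4.27 FPKM in GAP-2/3 libraries, and 8.34 and 5.43 FPKM in GAP-scr libraries, a log2 change of -0.58 ± 0.14 (adjusted p = 0.00935, limma). Without GAP-scr replicate A, the higher control, its log2 change was -0.32 and missed the threshold (adjusted p = 0.0638), as it did at -0.55 without GAP-2/3 replicate A (adjusted p = 0.0584). The calmodulin gene Calm2, whose protein binds and regulates the release channel, was higher (log2 change 0.55 ± 0.10, adjusted p = 0.0022). Of 4 other voltage sensor genes 0 were lower and 1 was higher for the mean of both arms (25% called). The higher one, the beta subunit Cacnb2, had 1.59 and 1.43 FPKM in GAP-2, 1.79 and 1.98 FPKM in GAP-2/3, and 0.942 and 0.983 FPKM in GAP-scr libraries. Its log2 change was 0.46 ± 0.10 (adjusted p = 0.00754, limma), and 0.75 with a pseudocount of 0.1. The alpha-2-delta subunit Cacna2d1 passed as lower in GAP-2/3, at -0.46 ± 0.15 (adjusted p = 0.0303, limma) with no overlap. It did not pass in GAP-2, at -0.14 ± 0.15 (adjusted p = 0.54). For the mean of both arms it had a log2 change of -0.30 ± 0.13 and missed the threshold (adjusted p = 0.0914). Its value moved with the control left out, at -0.04 without GAP-scr replicate A and -0.57 with a call without GAP-scr replicate B (adjusted p = 0.00285), and it also passed with the libraries scaled to one median (-0.40, adjusted p = 0.0436) and with the replicate block.

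Among the genes of membrane excitability, 3 of 7 were lower and 1 higher for the mean of both arms, the same numbers as in each arm. The shares of all tested genes differed, at 9.57% lower and 24.5% higher for the mean of both arms, 4.18% and 10.4% in GAP-2, and 11.3% and 28% in GAP-2/3. The higher gene of excitability, Kcnj2, the inward rectifier potassium channel that sets the resting potential, had 6.90 and 6.31 FPKM in GAP-2 libraries, 19.2 and 18.7 FPKM in GAP-2/3 libraries, and 3.34 and 2.74 FPKM in GAP-scr libraries. The 3 groups were fully apart, and the log2 change was 1.61 ± 0.11 for the mean of both arms (adjusted p = 2.46e-06, limma) and 1.39 for GAP-2/3 against GAP-2 (adjusted p = 4.68e-05). The muscle sodium channel Scn4a (-0.58 ± 0.13) and the sodium pump subunit Atp1b1 (-0.44 ± 0.11), named after their values were seen, were among the lower genes.

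Calcium uptake and entry genes were called about as often as all genes. Of 7 tested genes of uptake, extrusion and buffering 1 was lower and 1 higher for the mean of both arms (28.6% called), and of 10 genes of store-operated entry and mitochondrial uptake 2 were lower and 2 higher (40% called), against 34.1% of all tested genes. Atp2a2, at -0.28 ± 0.10, passed narrowly (adjusted p = 0.0499, limma) and in 7 of 15 alternative settings. The higher one was 2310015B20Rik, an older symbol of Mrln, whose micropeptide inhibits the pump, at 0.36 ± 0.12 (adjusted p = 0.037), with overlapping libraries and a call in 9 of 15 settings. The mitochondrial uniporter Mcu fell by 0.33 ± 0.10 on the log2 scale (adjusted p = 0.0286), with a call in 9 of 15 settings, while Ccdc109b, an older symbol of its dominant-negative paralogue Mcub, was higher at 4.64 and 4.79 FPKM in GAP-2, 3.78 and 3.32 FPKM in GAP-2/3, and 2.27 and 2.63 FPKM in GAP-scr libraries (log2 change 0.56 ± 0.11, adjusted p = 0.00292). The entry channel Orai3 changed by 0.29 ± 0.10 (adjusted p = 0.0389), a call kept in 5 of 15 settings, and the store sensor Stim1 was the other lower gene (-0.32 ± 0.11, adjusted p = 0.0466).

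The 10 members differed in how closely they followed each other over the 6 libraries, which share their gapmer groups. Pearson's r of a member with the mean of the other 9 was 0.96 for Cacnb1, 0.95 for Cacna1s, 0.93 for Atp2a1 and 0.91 for Ryr1. It was 0.88 for Jph2 and Stac3, 0.79 for Cacng1 and Casq2, 0.71 for Jph1 and -0.15 for Trdn. Of 8451 other genes that averaged 5 FPKM or more, 51 (0.603%) had an r of at least 0.95 with the members' mean profile over the 6 libraries. The 8 most alike were Mettl22, Dync1li1, Actc1, R3hdml, Pdlim3, Chrng, Cap2 and Art1, with r from 0.9795 to 0.9984. Of these Chrng, the fetal gamma subunit of the acetylcholine receptor, had 214 and 216 FPKM in GAP-2, 214 and 219 FPKM in GAP-2/3, and 393 and 401 FPKM in GAP-scr libraries. Actc1, the cardiac actin that developing skeletal muscle also expresses, had 1938 and 2033 FPKM in GAP-2, 2054 and 1884 FPKM in GAP-2/3, and 3894 and 3415 FPKM in GAP-scr libraries.

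The ChIRP peaks were set beside the members. Of the 798 merged peaks the authors deposited, 0 overlapped the span of any of the 10 genes, against 191 of 10950 tested genes (1.74%) with a peak in their span. With the spans widened by 10 kb on each side the count was still 0 of 10, against 2.53% of tested genes, and with 100 kb it was 1 of 10, against 9.37%. That gene was Cacng1, on chromosome 11, with a peak 67845 bp away. For the others the nearest peak lay between 132317 bp (Casq2) and 4055881 bp (Atp2a1) away. The peak list pools the probe sets, so no replicate error can be given for it.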

How the data were processed

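RNA was polyadenylated RNA made into libraries with a TruSeq stranded kit, per the labels' protocols. The tools in the submitters' processing notes are Bowtie2, CASAVA, Cuffdiff, Cufflinks, FastQC, MACS, TopHat2, Trimmomatic, bedtools and cutadapt (in alphabetical order), with mm9 as the build and no role or version given. FPKM values were deposited by the authors in 1 table with a column per library; counts are not in it, so no count model was used. No value was 0 and the lowest maximum of any gene was 1.03 FPKM. The peak score was deposited by the authors without a header and was not used; peak positions were read as GRCm38, inferred because 1 peak lies past where chromosome X ends in mm9 (general knowledge, in no file used). RefSeq genes of GRCm38.p6 were found for 99.6% of tested genes.

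The 10993 genes that averaged 1 FPKM or more (235 were below) were taken as log2(FPKM + 1) and fitted in limma 3.58.1 (R 4.3.3) with an intensity trend, the 3 groups together and no covariate. Adjusted p-values are Benjamini-Hochberg over all tested genes at a threshold of 0.05. The members and the companion and marker lists were chosen with earlier results of these data known. Named genes were all 10 members, the 2 companions of smallest p per role and companions that passed as higher, and the 8 genes most like the members' mean profile; others are named as chosen later. Some genes under this rule are not reported here. E-boxes, MEF2 and CArG motifs were searched on both strands with Python 3.11.15; for genes with several starts the first entry was used.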

Additional observations from a re-analysis of the deposited data

Results flagged for a closer look

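Of the 67 members and companion genes tested, 8 (11.9%) passed the test of GAP-2/3 against GAP-2 itself (limma), near the 10.1% of all tested genes. Among the members it was Jph1, with a log2 change of -0.43 (adjusted p = 0.0486). Among the companion genes, Kcnj2 changed by 1.39 (adjusted p = 4.68e-05), and it kept its call in 16 of 16 alternative settings. Atp2a3, a calcium pump of non-muscle cells, changed by -1.14 (adjusted p = 0.000511), or -2.06 with a pseudocount of 0.1, with 0.356 and 0.593 FPKM in GAP-2/3 libraries against 2.10 and 2.40 FPKM in GAP-2 libraries. Dhrs7c, an enzyme of the sarcoplasmic reticulum, changed by -0.61 (adjusted p = 0.00812), with 7.06 and 6.37 FPKM in GAP-2/3 libraries against 10.3 and 11.2 FPKM in GAP-2 libraries. S100a1, a calcium sensor that binds the release channel, changed by 0.49 (adjusted p = 0.027), with 88.7 and 86.0 FPKM in GAP-2/3 libraries against 62.2 and 61.4 FPKM in GAP-2 libraries. Dnm2, a membrane-fission GTPase, changed by -0.47 (adjusted p = 0.0215), and Tmem38a, a counter-ion channel of the store, by -0.38 (adjusted p = 0.0381). The Mrln gene 2310015B20Rik changed by 0.47 (adjusted p = 0.0494). The calls of S100a1, Dnm2, Tmem38a and 2310015B20Rik were lost when any 1 of the 4 gapmer libraries was left out. The call of Dhrs7c was lost without GAP-2 replicate B or either GAP-2/3 library. Scaling mattered too: 2310015B20Rik missed the threshold with quantile normalization (adjusted p = 0.0813, limma) and one median (adjusted p = 0.0784). S100a1 missed it with one median (adjusted p = 0.0618, limma). The 2310015B20Rik call was also lost with a pseudocount of 0.1, and those of 2310015B20Rik and Tmem38a with no intensity trend.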

How the results depend on the processing

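Against GAP-scr, Ryr1, Cacna1s, Cacnb1 and Atp2a1 passed in every alternative run in all 3 comparisons, 15 for the mean of both arms and 16 for each arm. With 1 library left out, members called ranged from 6 to 7 for the mean of both arms, 4 to 6 in GAP-2, 6 to 7 in GAP-2/3 and 0 to 1 for GAP-2/3 against GAP-2, and companion genes from 14 to 25, 7 to 18, 10 to 33 and 2 to 17 in the same comparisons. For GAP-2/3 against GAP-2, 0 members passed with no intensity trend or without both libraries high in Rn45s, and 12 companion genes passed with the replicate block, 16 with only the groups compared and 12 at a threshold of 0.1. In GAP-2 8 companion genes passed with only the groups compared, and in GAP-2/3 20 without both libraries high in Rn45s. Replicate letters were not taken as pairs: same-letter deviations correlated at -0.18 (GAP-2/3 with GAP-2), -0.13 (GAP-2/3 with GAP-scr) and 0.36 for GAP-2 with GAP-scr, the groups whose replicate A is high in Rn45s. With the replicate block 8, 6, 6 and 1 members passed, and with the GAP-2/3 letters crossed, a pairing added after the data were seen, 9, 6, 8 and 1. The log2 change of Trdn reversed for the mean of both arms with quantile normalization (-0.10) and one median (-0.03) and ran from -0.06 to 0.14 with 1 library left out, reversing without GAP-2 replicate B (-0.01), GAP-2/3 replicate A (-0.03) or GAP-scr replicate B (-0.06). In GAP-2 it ran from -0.19 to 0.02, reversing without GAP-2 replicate A or GAP-scr replicate A (0.02 each), and was 0.12 without both libraries high in Rn45s. For GAP-2/3 against GAP-2, Stac3 reversed with quantile normalization (-0.02) and one median (-0.01). Without GAP-2/3 replicate A, Stac3 (-0.01), Cacna1s (0.05), Casq2 (-0.05) and Atp2a1 (0.08) reversed, in leave-one-out ranges of -0.01 to 0.07, -0.20 to 0.05, -0.05 to 0.22 and -0.18 to 0.08. Members near a peak were 1 with spans widened by 100 kb. The cause was not tested. Depth is unknown, so counting error at low FPKM cannot be given.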
